A study of Mus musculus with 6 samples.

Results

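Oligodendrocytes were compared with the oligodendrocyte progenitor cells (OPCs) they were made from, once at passage 3 and once at passage 11 of the progenitor culture. The comparison rests on 4 of the 6 arrays of the study, 1 for each cell type at each passage, and on 19938 genes out of 35556 measured transcripts. A gene entered when the array annotation gave its transcript exactly 1 symbol, and the transcript with the highest mean over the 6 arrays stood for it. All cells were mouse cells of strain 129 derived from epiblast stem cells (EpiSCs), which are pluripotent cells of the postimplantation epiblast, and the labels name no genetic change. EpiSCs had been turned into neural rosettes over 5 days with SB431542, Dorsomorphin, Noggin, retinoic acid and sonic hedgehog (SHH). OPC cultures came from dissociated rosettes and were kept in N2B27 medium with FGF2, PDGF-AA and SHH. For oligodendrocytes, thyroid hormone was added to such OPCs, and FGF2 and PDGF-AA were withdrawn. Each array therefore is 1 culture at 1 passage, and nothing in the labels tells of a further separation of the cultures.

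OPCs are the dividing, migrating cells of the oligodendrocyte lineage, and PDGF and FGF keep them dividing. When these mitogens are withdrawn and thyroid hormone is present, OPCs leave the cell cycle, grow branched processes and make myelin, a sheath of stacked cell membrane rich in cholesterol, galactolipids and a few abundant proteins. The transcription factors Olig2 and Sox10 mark the whole lineage, Myrf turns on the myelin genes, and Mag, Mbp and Mog encode proteins of the sheath.

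The values are log2 expression values, so a difference of 1 is a 2-fold difference. Differences are oligodendrocyte minus OPC. The 2 passages together were tested with limma, a linear model for arrays, and a gene with a Benjamini-Hochberg adjusted p under 0.05 over all 19938 genes is named called. What a p-value measures here is the difference against the spread between 2 cultures of a group, which includes the passage. limma draws the spread of each gene toward a value shared by all genes, so the error of a gene is not its own spread alone. The difference at a single passage has 1 array on each side and no error, so it was only counted by size. In RNA from a whole culture, fewer cells of a type and less RNA per cell cannot be told apart. Array medians over the genes lay between 8.98 and 9.04, and values near or below that level can be background.

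Markers of the lineage were first set beside the labels. Mag, a receptor-like adhesion protein that faces the axon, was at 8.02 in passage 3 OPCs and 8.01 in passage 11 OPCs, and at 13.27 and 13.24 in the oligodendrocytes of the same passages. Opalin, a protein of mature myelinating cells, was at 6.94 and 7.77 in OPCs and at 8.39 and 10.79 in oligodendrocytes, so it lay below the array median in passage 3 oligodendrocytes. OPC markers were still present in the oligodendrocyte cultures: the PDGF receptor gene Pdgfra was at 12.87 and 12.95 in OPCs and 12.62 and 11.99 in oligodendrocytes. Bcan, which encodes a matrix proteoglycan of OPCs, was at 12.20 and 12.37 in OPCs and 12.43 and 12.84 in oligodendrocytes. Cspg4 and Ncan, given below, were lower in oligodendrocytes at both passages. Of 26 surface and matrix genes of OPCs, 16 were negative and 9 positive at both passages, against 33.0% and 31.1% of all genes. Olig2 was at 13.07 and 13.11 in OPCs and at 12.37 and 12.76 in oligodendrocytes, and Sox10 at 10.65 and 10.81 against 11.32 and 11.46. Neither Olig2 (adjusted p = 0.338) nor Sox10 (adjusted p = 0.188) passed limma's test. The lists of microglial, endothelial and pluripotency markers had medians between -0.05 and 0.04 at either passage, and no member of them was 2-fold apart.

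Of the 19938 genes, 79 rose and 10 fell in oligodendrocytes by limma's test, which is 0.396% and 0.0502% of the genes. Without adjustment, 2458 genes had p under 0.05. The 89 called genes, 0.446% of all, each differed at least 2-fold in the same direction at both passages. For none of them did an OPC array overlap an oligodendrocyte array, and the groups did not overlap in 40.1% of all genes. A call needs a large difference beside the spread within the groups, so neither trait is separate evidence for the calls. With the passage as a block, 72 genes (0.361%) rose and 11 (0.0552%) fell, and 58 of the 89 calls were kept. When the arrays were quantile normalised once more, 14 genes rose and 0 fell, so the share of increases among calls went from 88.8% to 100%. With each array centred on its median, 128 rose and 29 fell. The 14 were Mag, Mbp, Mobp, Cldn11, Tmem88b, Fa2h, Nfasc, Tppp, Tubb4a, Slc24a2, Kndc1, Gadd45b, Aplp1 and Adamts4. Without the passage 3 OPC array only Mag and Cldn11 were called, and without the passage 11 OPC array only Mag, Cldn11, Mobp and Tmem88b. Each call outside the 14 was lost in the second quantile normalisation and without either OPC array. Without the passage 3 oligodendrocyte array 1151 genes rose and 1768 fell, and without the passage 11 one 1004 rose and 361 fell. In those fits the spread comes from the OPC arrays alone, which differed by a median of 0.15 per gene, against 0.22 between the oligodendrocyte arrays.

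By size alone, the passages were alike in the number of higher genes and unlike in the number of lower ones. At passage 3, 529 genes (2.65%) were at least 2-fold higher in oligodendrocytes and 105 (0.527%) at least 2-fold lower. At passage 11 there were 509 (2.55%) and 494 (2.48%). Both passages together gave 228 genes (1.14%) higher and 74 (0.371%) lower. Of the genes 2-fold higher at passage 3, 43.1% were also 2-fold higher at passage 11, and 44.8% the other way round. Of the genes 2-fold lower at passage 3, 70.5% were so at passage 11, but only 15.0% of those lower at passage 11 were so at passage 3. Only Lpp, which encodes an adhesion and actin-associated LIM protein, was 2-fold apart in opposite directions, at 1.14 and -1.03. The differences of the 2 passages correlated across genes, with genes not being independent replicates, at 0.60 (Pearson) and 0.48 (Spearman), and 64.1% had the same sign. Between the passages, 785 genes were 2-fold apart in the oligodendrocyte arrays, 631 of them lower at passage 11, and 125 in the OPC arrays.

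**Figure D1:**
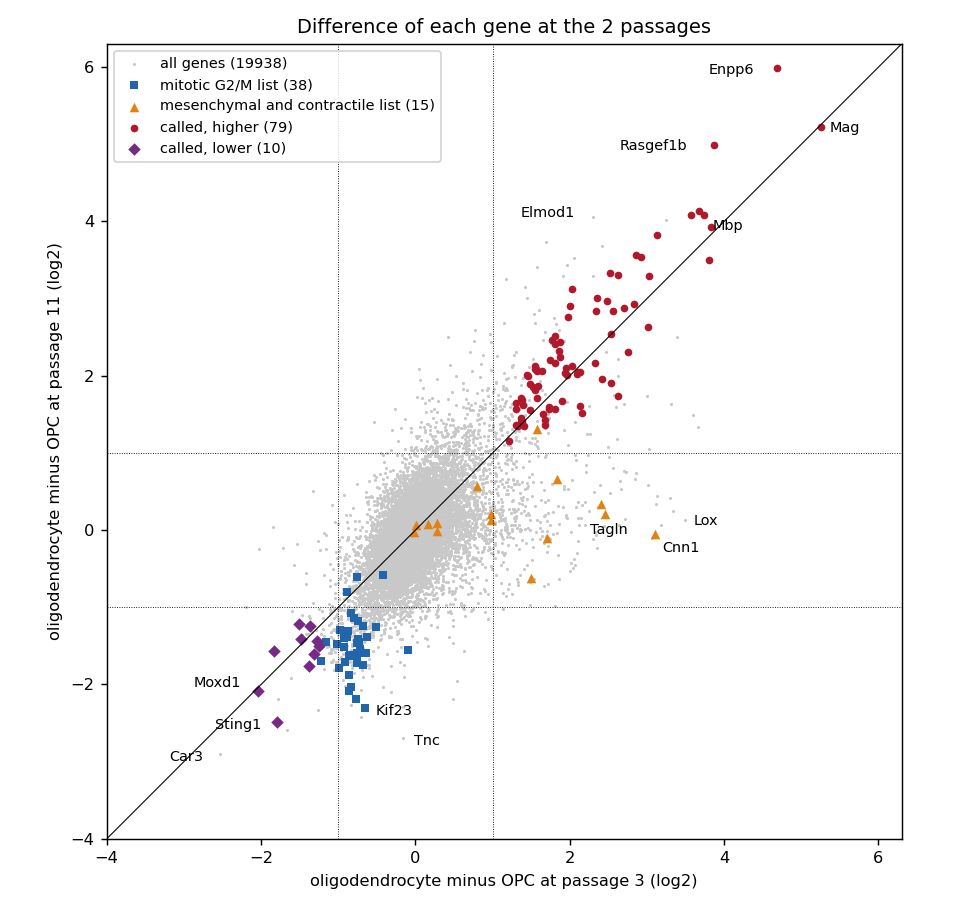
Oligodendrocyte minus OPC (log2) at passage 3 on the horizontal axis and at passage 11 on the vertical axis, 1 point per gene, with called genes, the mitotic list and the mesenchymal and contractile list marked. Dotted lines are 2-fold and the diagonal is equality. The called genes lie near the diagonal, the mitotic genes lie below it, and Cnn1, Tagln and Lox lie far to the right near 0 on the passage 11 axis.

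Genes for the proteins of the myelin membrane had the highest list median. Of 21 measured, 11 rose (0.396% of all genes) and 0 fell. At least 2-fold higher at both passages were 15 (1.14% of all genes), and 20 were positive at both (31.1% of all genes). Their median difference was 2.03 in the passage 3 pair and 2.97 in the passage 11 pair, where that of all genes was -0.01 and 0.01. Cldn11, the tight junction claudin between myelin layers, was at 10.10 and 9.51 in OPCs and at 13.78 and 13.64 in oligodendrocytes and rose by 3.90 (SE 0.23, adjusted p = 0.0218). Mobp, a small basic protein of compact myelin, was at 8.08 and 8.503 in OPCs and at 11.88 and 12.003 in oligodendrocytes and rose by 3.65 (SE 0.19, adjusted p = 0.0153). For both genes the arrays of 1 cell type lay much nearer to each other than to those of the other. Passage 11 minus passage 3 in OPCs was -0.60 for Cldn11 and 0.42 for Mobp, where the median absolute difference over all genes was 0.15. Tmem88b, a membrane protein gene, went from 8.42 and 8.67 to 12.26 and 12.60. Cnp, the phosphodiesterase of the cytoplasmic myelin channels, was high already in OPCs, at 10.95 and 10.96, and rose to 13.31 and 13.97. Pllp, the gene of plasmolipin, rose by 2.73 (SE 0.25), and Gpr37, a receptor of the lineage, by 2.16 (SE 0.20). Tspan2, a tetraspanin, and Plekhb1 were called too, at 2.58 and 1.48, but lost the call with the passage as a block (adjusted p = 0.0627 and 0.0544).

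Among myelin genes that were not called, the passages disagreed. Ninj2 was at 8.74 and 8.68 in OPCs and at 10.16 and 11.83 in oligodendrocytes, with differences of 1.42 and 3.15 (adjusted p = 0.197). Mal, which encodes a raft proteolipid of compact myelin, went the other way, with oligodendrocyte levels of 11.18 at passage 3 and 9.81 at passage 11 and differences of 2.21 and 0.75. Ermn, the gene of the cytoskeletal protein ermin, also had the larger difference at passage 3, 2.70 against 1.63. Opalin had 1.45 and 3.01. In each of these the OPC arrays lay below both oligodendrocyte arrays.

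The lipid enzymes split by pathway. Of the galactolipid pathway, 3 genes rose. Fa2h, which hydroxylates their fatty acids, was at 8.57 and 8.64 in OPCs and 11.60 and 11.93 in oligodendrocytes (difference 3.16, SE 0.17, adjusted p = 0.0153). Ugt8a, the enzyme that joins galactose to ceramide, was at 10.34 and 10.64 against 12.90 and 13.47 (difference 2.70, SE 0.24, adjusted p = 0.0407), and Elovl7, a fatty acid elongase, at 9.20 and 9.23 against 12.32 and 13.06 (difference 3.48, SE 0.26, adjusted p = 0.0294). No other of the 21 genes was called in the list of sphingolipids and galactolipids, where 0.396% of all genes rose. The list had 5 members 2-fold higher at both passages (1.14% of all genes) and a median of 0.60. Sgms2, a sphingomyelin synthase, missed the call at 2.06 (adjusted p = 0.0897) and passed it with the passage as a block (adjusted p = 0.0491). Gal3st1, which adds the sulphate of sulphatide, had 0.80 and 1.43 (adjusted p = 0.210). Fatty acid synthesis genes had a median of 0.06 and no call among 16: the synthase Fasn was at 12.58 and 12.04 in OPCs and 12.24 and 11.98 in oligodendrocytes.

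Sterol synthesis genes as a list had a larger difference at passage 11 than at passage 3. Of 20, 13 were positive at both passages (31.1% of all genes). None was 2-fold apart at passage 3, where 2.65% of all genes were higher and 0.527% lower. At passage 11, 7 were at least 2-fold higher (2.55% of all genes). The median was 0.03 at passage 3, between -0.01 and 0.03 over the scalings tried, and 0.74 at passage 11. No member was called (lowest adjusted p 0.135, Ebp). Lss, which closes the sterol ring as lanosterol synthase, was at 11.91 in passage 3 OPCs, 10.94 in passage 11 OPCs, and 12.07 and 12.31 in oligodendrocytes. Idi1, the isopentenyl isomerase, was at 12.28 and 11.62 in OPCs and at 12.30 and 12.84 in oligodendrocytes. Lss and Idi1 thus had their lowest level in passage 11 OPCs, and all 20 genes were lower in passage 11 than in passage 3 OPCs, by a median of 0.49, while 7 of 20 were lower in passage 11 oligodendrocytes. Ebp, a sterol isomerase, had 0.74 at passage 3 and 1.23 at passage 11, and Hsd17b7, which acts as a sterol ketoreductase, 0.83 and 1.13. The regulator gene Srebf2 was not among the higher ones, at -0.19 and -0.25.

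In the sterol promoters, from 250 bases before to 50 after any start of the gene in RefSeq (GRCm38.p6), the CCAAT box was present in each of the 16 genes with a window, against 41.7% of the 15614 tested genes with one. The motif searched was CCAAT on either strand, the box that the factor NF-Y binds next to sterol regulatory elements. The box was also present in 26 of 33 mitotic genes (78.8%) and 20 of 32 replication genes (62.5%). Among myelin membrane genes it was in 8 of 19 (42.1%), and among FGF and ERK feedback genes in 7 of 13 (53.8%). It is a short motif, and a match is no evidence of binding. The 3 stretches below are shown because their genes had some of the largest sterol differences at passage 11. Capitals mark CCAAT or, where the box is on the other strand, ATTGG, and each run ends before the start.
Lss (chr10:76531503-76531587, plus strand): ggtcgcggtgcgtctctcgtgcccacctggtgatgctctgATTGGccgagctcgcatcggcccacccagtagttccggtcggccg
Ebp (chrX:8193523-8193607, minus strand): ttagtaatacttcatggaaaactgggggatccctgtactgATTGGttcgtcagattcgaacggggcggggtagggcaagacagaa
Idi1 (chr13:8885552-8885605, plus strand): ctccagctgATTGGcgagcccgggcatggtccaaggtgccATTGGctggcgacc

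**Figure D2:**
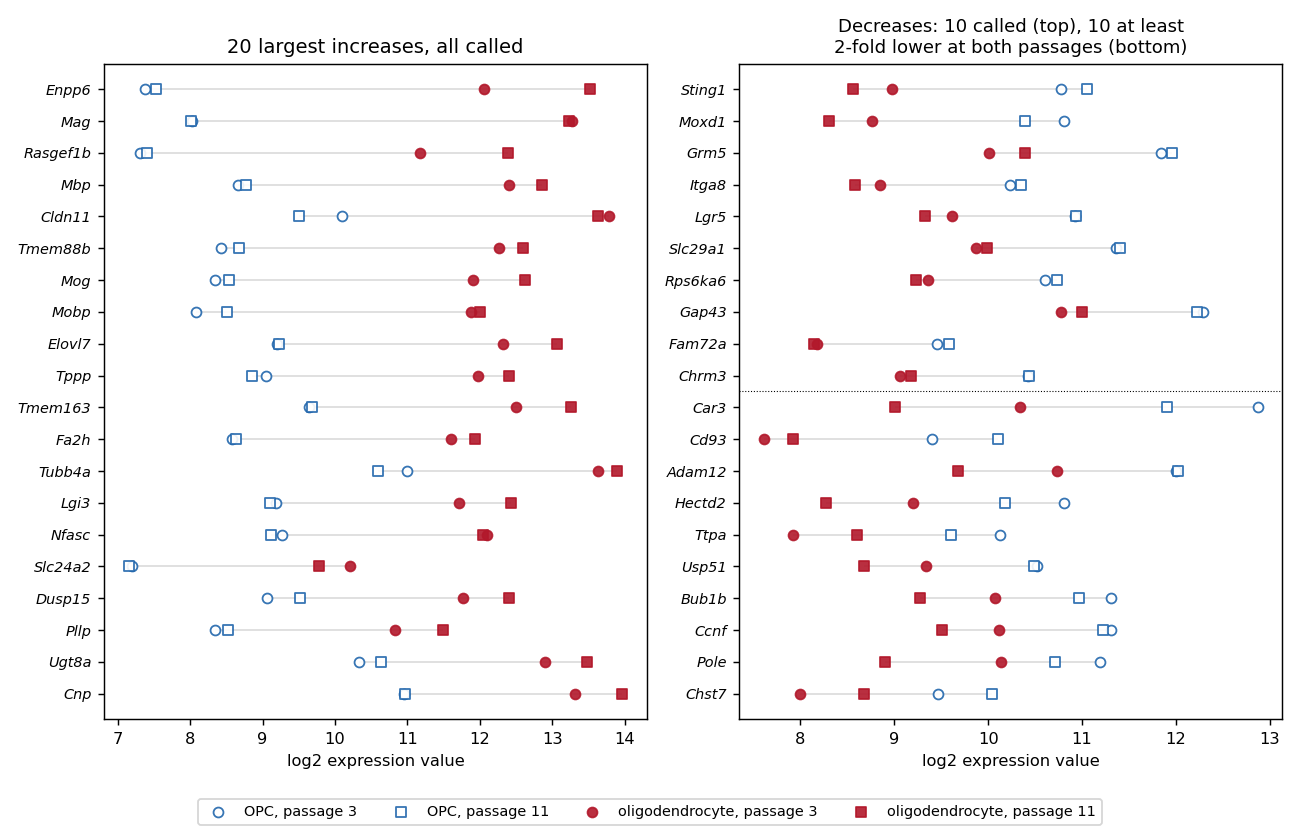
Log2 level of each gene in the 4 arrays, with open symbols for OPCs, filled symbols for oligodendrocytes, circles for passage 3 and squares for passage 11. Left, the 20 largest increases, all called; right, the 10 called decreases above the dotted line and 10 genes at least 2-fold lower at both passages below it. OPC and oligodendrocyte symbols do not overlap in any row, and the rows were picked for their differences.

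Of 20 adhesion and paranode genes, 5 rose (0.396% of all genes): Mag, Mog, Nfasc, Tnr and Ank3. Mag and Mog were also in the list of myelin membrane genes. Nfasc, whose glial form of neurofascin sits at the paranode, was at 9.26 and 9.11 in OPCs and at 12.10 and 12.04 in oligodendrocytes (difference 2.88, SE 0.14, adjusted p = 0.0153). Tnr, a tenascin of perinodal matrix, rose by 2.08 (SE 0.16) and Ank3, the gene of ankyrin G, by 1.69 (SE 0.17, adjusted p = 0.041). The median of all 20 was 0.21 at passage 3 and 0.18 at passage 11, and 12 were positive at both (31.1% of all genes). Lgi3, a secreted leucine-rich repeat protein gene, was not on the list and rose from 9.19 and 9.11 to 11.71 and 12.44.

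Genes of the microtubule cytoskeleton were also among the calls. Tppp, the tubulin polymerisation promoting protein, was at 9.05 and 8.86 in OPCs and at 11.97 and 12.40 in oligodendrocytes (difference 3.23, SE 0.19, adjusted p = 0.0219). Tubb4a, a beta tubulin of myelinating cells, was at 10.99 and 10.59 against 13.63 and 13.89 (difference 2.97, SE 0.20, adjusted p = 0.0233). Of 25 cytoskeletal genes 3 rose (0.396% of all genes). Of the 25, 7 were 2-fold higher at both passages and 23 were positive at both (1.14% and 31.1% of all genes). The third call, the tubulin deacetylase Sirt2, rose by 1.82 and lost the call with the passage as a block (adjusted p = 0.0546). Stmn4, a stathmin, had 0.88 and 2.26, and the kinesin Kif21a 1.13 and 1.86, without a call.

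Newly formed oligodendrocytes express a transient set of genes. Of 21 such genes 4 rose (0.396% of all genes): Enpp6, Tmem163, Gpr17 and Sema5a. Enpp6, a choline phosphodiesterase, was at 7.38 and 7.53 in OPCs, below the array median, and at 12.06 and 13.52 in oligodendrocytes (difference 5.33, SE 0.47, adjusted p = 0.0407). Tmem163, a zinc transporter, went from 9.64 and 9.69 to 12.49 and 13.26, and Gpr17, a receptor of committed precursors, from 10.03 and 9.54 to 11.78 and 11.74. Bmp4, a bone morphogenetic protein made by the lineage, was at 8.67 and 8.51 in OPCs and at 12.27 and 10.01 in oligodendrocytes. Its difference was 3.60 at passage 3 and 1.496 at passage 11 (adjusted p = 0.255). Rras2, a small GTPase gene, went the other way with 1.15 and 2.68, and so did Bcas1 with 1.82 and 2.68.

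Of the other calls, several were regulators of signalling. Rasgef1b, an exchange factor of Ras-family GTPases, was at 7.30 and 7.40 in OPCs and at 11.17 and 12.39 in oligodendrocytes (difference 4.43, SE 0.40, adjusted p = 0.0407). The phosphatase gene Dusp15 was at 9.05 and 9.52 against 11.76 and 12.40 (difference 2.80, SE 0.28, adjusted p = 0.0407), and the atypical protein kinase C gene Prkcz rose by 2.09. The stress sensor Gadd45b was at 8.78 and 8.76 in OPCs and at 10.91 and 10.81 in oligodendrocytes (difference 2.09, SE 0.14, adjusted p = 0.0233). Smad7, which blocks TGF-beta and BMP signals, rose by 1.79 (SE 0.17). Padi2, a deiminase that citrullinates myelin basic protein, rose by 1.65, Mgll, the monoacylglycerol lipase, by 1.69, and the beta-secretase gene Bace2 by 1.66. Aplp1, an amyloid precursor-like protein gene, was at 10.99 and 10.81 in OPCs and 12.94 and 12.91 in oligodendrocytes.

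Channels and transporters moved singly. Slc24a2, a potassium-dependent sodium-calcium exchanger, was at 7.19 and 7.15 in OPCs and 10.21 and 9.78 in oligodendrocytes (difference 2.82, SE 0.19, adjusted p = 0.0233). Of 24 potassium channel genes only Kcnj10, the glial inward rectifier Kir4.1, rose, by 1.53, and it lost the call with the passage as a block (adjusted p = 0.0526). Kcna1, a voltage-gated channel, had a larger difference, from 7.89 and 8.40 to 11.14 and 12.43, without a call (adjusted p = 0.0617), and passed with the passage as a block (adjusted p = 0.0407). Kcnj16, a partner subunit of Kir4.1, was lower by 1.10 and 1.21 (adjusted p = 0.328). The calcium channel subunit gene Cacnb4 and the glutamate transporter gene Slc1a1 rose by 1.82 and 1.84, and both lost the call with the block (adjusted p = 0.0544 and 0.0569). Slc44a1, a choline transporter, had 1.58 and 2.06 (adjusted p = 0.0667).

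Receptors and guidance molecules went both ways. Of 22 G protein-coupled receptors 4 rose, Lpar1, Gpr37, Gpr17 and S1pr5, and 1, the muscarinic receptor Chrm3, fell (0.396% and 0.0502% of all genes). Lpar1 and S1pr5, receptors of lysophosphatidic acid and sphingosine 1-phosphate, rose by 2.46 and 1.83, and lost the call with the passage as a block (adjusted p = 0.0589 and 0.0593). Of 37 semaphorins, plexins and other guidance genes 3 rose (0.396% of all genes). Sema4d, a transmembrane semaphorin, rose from 9.0006 and 8.46 to 10.98 and 11.22 (adjusted p = 0.0544 with the block), Plxnb3, a plexin, from 9.18 and 9.80 to 11.60 and 11.76, and Sema5a from 10.09 and 9.66 to 11.73 and 11.73. Sema3e, a secreted semaphorin, had 1.91 and 3.29 (adjusted p = 0.0946), and Slit2, a repellent ligand, 2.85 at passage 3 and 0.66 at passage 11 (adjusted p = 0.515). Adamts4, a protease that cuts brain proteoglycans, was at 9.08 and 9.12 in OPCs and at 11.16 and 11.14 in oligodendrocytes (difference 2.06, SE 0.13, adjusted p = 0.0233). In vesicle traffic 2 of 24 genes rose (0.396% of all genes). They were the small GTPase gene Rab33a, by 2.54, and the endophilin gene Sh3gl3, by 1.98. Sytl2, a Rab effector, had 2.47 and 2.31 and was uncalled without a block and called with it (adjusted p = 0.0357).

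**Figure D3:**
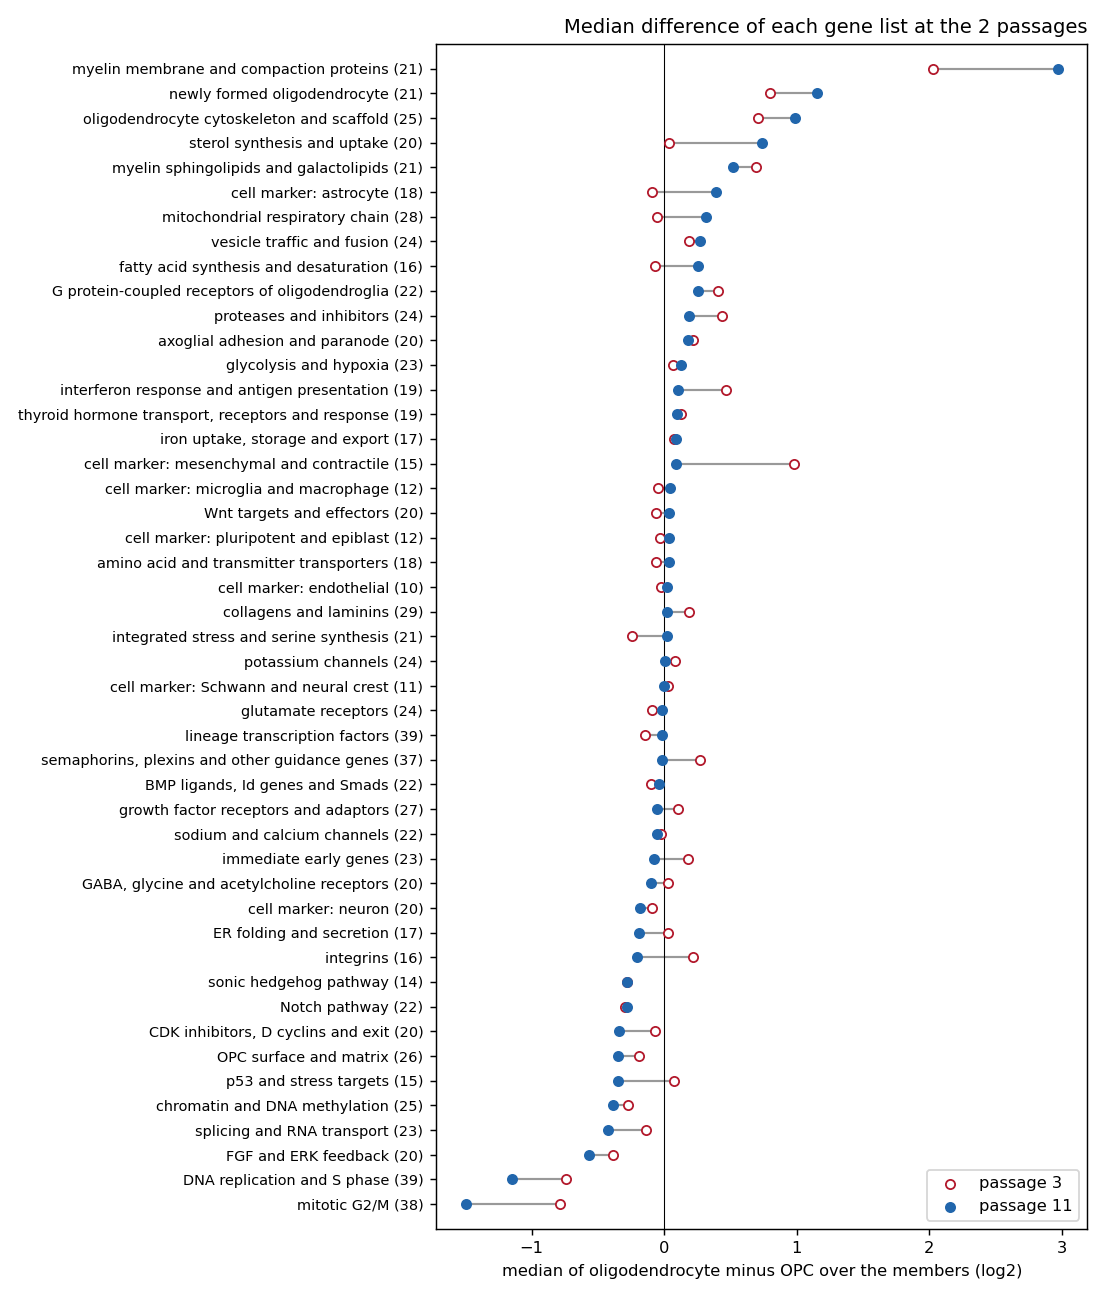
Median of oligodendrocyte minus OPC (log2) over the measured members of each of 47 gene lists, with the number of members in brackets, an open circle for passage 3 and a filled circle for passage 11. Myelin membrane genes lie at 2.03 and 2.97 and mitotic genes at -0.79 and -1.50. The medians of the mesenchymal and contractile list (0.98 and 0.09) and of the sterol list (0.03 and 0.74) lie far apart between the passages.

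Among 39 lineage transcription factors 2 rose (0.396% of all genes). Myrf, the activator of the myelin genes, was at 9.18 and 9.15 in OPCs and at 11.53 and 11.99 in oligodendrocytes (difference 2.59, SE 0.20, adjusted p = 0.0294). St18, a zinc finger gene, was at 7.61 and 7.70 against 9.56 and 9.70 (difference 1.98, SE 0.14, adjusted p = 0.0266). Zfp488, a lineage zinc finger gene, had 1.31 and 1.17 and missed the call (adjusted p = 0.188). Some factors linked to the progenitor state had negative values without a call: Sox9 -0.82 and -1.19, Sox11 -0.88 and -1.14, and Id3, an inhibitor of bHLH factors, -0.99 and -0.89. Another Id gene, Id4, went the other way, with 0.41 and 0.87, also without a call (adjusted p = 0.497). Tcf7l2, a Wnt effector active in newly formed cells, hardly differed, at 0.11 and 0.08, and the early gene Nkx2-2 had -0.28 and -0.72.

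The culture change itself was thyroid hormone for FGF2 and PDGF-AA, and genes that report on these signals were read beside it. Of 19 genes of thyroid hormone transport, reception and response, 9 were positive and 6 negative at both passages (31.1% and 33.0% of all genes). Their median mean difference was 0.16, with no call. The largest were 2 response genes: Hr, a corepressor induced by the hormone, was at 8.87 and 9.002 in OPCs and 10.10 and 10.74 in oligodendrocytes (adjusted p = 0.108), and Klf9, a direct target, at 10.04 and 10.21 against 11.23 and 11.20 (adjusted p = 0.0737). Crym, a hormone-binding crystallin, and Rcan2, a calcineurin regulator, were higher at passage 3 alone, with 1.27 and -0.10 and with 1.14 and -0.11. Crym was at 11.01 and 8.82 in OPCs and at 12.28 and 8.73 in oligodendrocytes. Both of its passage 11 values thus lay below the array median and can be background. Of 20 feedback genes of FGF and ERK signalling, 14 were negative at both passages (33.0% of all genes), 13 had groups that did not overlap (40.1% of all genes in either direction), and none was called (lowest adjusted p 0.0777). Spry4, a feedback inhibitor, was at 11.90 and 12.36 in OPCs and at 10.99 and 10.35 in oligodendrocytes, with differences of -0.91 and -2.02. Spry1 had -1.15 and -1.52, the ETS factor gene Etv4 -1.33 and -0.94, and the ERK phosphatase gene Dusp6 -0.63 and -1.41. Ccnd1, the cyclin that mitogens induce, had -0.49 and -1.51. Notch genes had a median of -0.25 without a call, led by the feedback gene Nrarp at -1.09 and -1.54. Genes of the SHH pathway, whose ligand SHH is not listed as removed, had a median of -0.32 without a call. Of these 14 genes, 10 were negative at both passages (33.0% of all genes). The largest mean difference was nevertheless positive, that of Hhip at 0.08 and 1.71.

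All 10 called decreases were genes outside the cell cycle lists. Sting1, the adaptor of cytosolic DNA sensing, was at 10.77 and 11.05 in OPCs and at 8.98 and 8.56 in oligodendrocytes and fell by 2.14 (SE 0.20, adjusted p = 0.0407). Moxd1, a monooxygenase-like gene, was at 10.80 and 10.39 against 8.77 and 8.31 and fell by 2.06 (SE 0.23, adjusted p = 0.0479). Grm5, the metabotropic glutamate receptor mGluR5, was at 11.84 and 11.96 against 10.01 and 10.40 and fell by 1.70 (SE 0.18, adjusted p = 0.0441). The nucleoside transporter gene Slc29a1 fell by 1.45, from 11.36 and 11.40 to 9.87 and 9.99. The integrin gene Itga8 fell by 1.57, the R-spondin receptor gene Lgr5 by 1.46, the kinase gene Rps6ka6 by 1.38, the growth cone gene Gap43 by 1.36, Fam72a by 1.36 and the muscarinic receptor gene Chrm3 by 1.31. Of the 10, only Moxd1, Grm5 and Slc29a1 kept the call with the passage as a block (adjusted p = 0.0357, 0.0491 and 0.0491). The other seven had adjusted p between 0.0525 and 0.0556 there.

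The largest negative difference of a gene 2-fold lower at both passages was that of Car3, a carbonic anhydrase, which was not called. It was at 12.87 and 11.90 in OPCs and at 10.34 and 9.01 in oligodendrocytes, so both cell types were lower at passage 11 and the differences stayed close, -2.53 and -2.90 (adjusted p = 0.149, and 0.0357 with the passage as a block). Cd93 had -1.78 and -2.19, Hectd2 -1.61 and -1.91, and the sulphotransferase gene Chst7 -1.47 and -1.36, and each was uncalled in the fit without a block and called with it (adjusted p = 0.0491). The metalloprotease gene Adam12 had -1.27 and -2.34 (adjusted p = 0.149).

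Of 26 surface and matrix genes of OPCs, none was 2-fold lower at passage 3 and 7 were at passage 11. The shares over all genes were 0.527% and 2.48%. With the arrays centred on their median, 1 was 2-fold lower at passage 3. The list medians were -0.19 and -0.35, and 15 of the 26 were more negative at passage 11 (48.9% of all genes). Tnc, the gene of tenascin C, was at 13.22 and 12.45 in OPCs, at 13.06 in passage 3 oligodendrocytes and at 9.76 in passage 11 oligodendrocytes. Nes, the neural progenitor filament nestin, was at 12.21 and 11.66 in OPCs and at 11.89 and 9.56 in oligodendrocytes. In both genes the passage 3 oligodendrocyte array lay among the OPC arrays, and the adjusted p was 0.735 and 0.646. Cspg4, the NG2 proteoglycan gene, had -0.71 and -0.88, the proteoglycan gene Ncan -0.75 and -1.11, and the xylosyltransferase gene Xylt1 -0.94 and -1.26. Of the list, 2 genes rose, Tnr and Gpr17, given above.

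Mitotic genes were lower in oligodendrocytes at both passages, and by more at passage 11. All 38 were negative at both passages (33.0% of all genes). The groups of 37 did not overlap (40.1% of all genes in either direction), and 36 were more negative at passage 11 (48.9% of all genes). At passage 3 only 3 were at least 2-fold lower (0.527% of all genes), or 5 with the arrays centred on their median. At passage 11 35 were (2.48% of all genes). The median was -0.79 and -1.50. None was called (lowest adjusted p 0.0777, or 0.059 with the passage as a block). Mki67, the proliferation marker Ki-67, was at 12.69 and 12.47 in OPCs, at 11.85 in passage 3 oligodendrocytes and at 10.44 in passage 11 oligodendrocytes. Kif23, a kinesin of the midbody, was at 11.56 and 11.62 in OPCs and at 10.91 and 9.31 in oligodendrocytes, and Bub1, a spindle checkpoint kinase, at 11.86 and 11.75 against 11.09 and 9.55. For these 3 genes the OPC arrays lay close together and the oligodendrocyte arrays far apart. Over the 38, the median difference between passages was -0.12 in OPCs and -0.80 in oligodendrocytes. Kif2c, a microtubule depolymerase, was close at both passages with -1.16 and -1.45.

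DNA replication genes had the same order with a smaller gap. All 39 were negative at both passages (33.0% of all genes). At least 2-fold lower were 4 at passage 3 and 24 at passage 11 (0.527% and 2.48% of all genes). Their medians were -0.74 and -1.15, with no call (lowest adjusted p 0.0741). Pole, a polymerase subunit, was at 11.19 and 10.71 in OPCs and at 10.14 and 8.90 in oligodendrocytes. Mcm3, a subunit of the replicative helicase, was at 11.02 and 10.62 against 9.92 and 9.06. Uhrf1, which guides maintenance methylation, had close differences at the passages, -1.34 and -1.32, and Rfc3, a clamp loader subunit, had -1.21 and -1.05. Of the cell cycle inhibitors, Cdkn1c (p57) had 1.04 and 0.53 and Cdkn1b (p27) -0.21 and -0.44, and neither was called. Ccnd2, a D-type cyclin, was at 13.63 and 13.42 in OPCs and at 13.48 and 11.68 in oligodendrocytes.

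**Figure D4:**
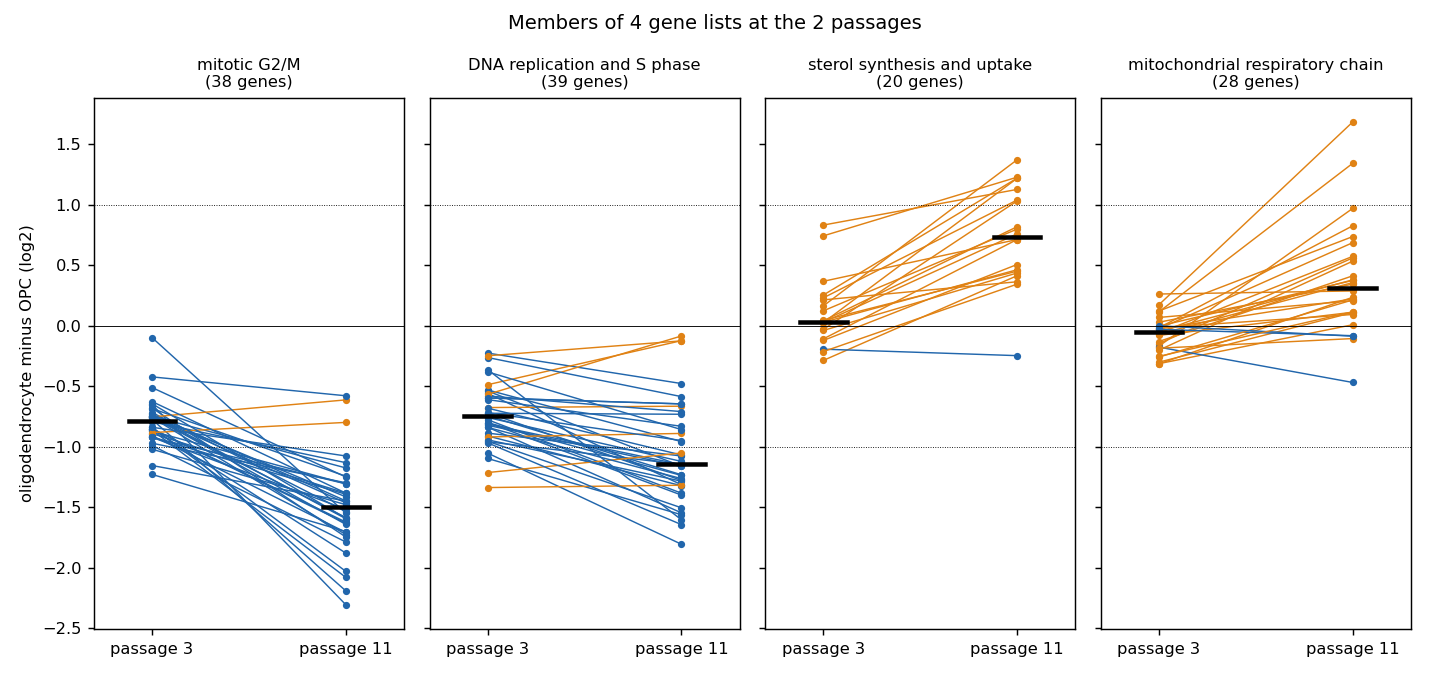
Oligodendrocyte minus OPC (log2) of each member of 4 gene lists at passage 3 and passage 11, joined by a line that is blue where the value is lower at passage 11 and orange where it is higher. Black bars are medians, and dotted lines are 2-fold. Of the mitotic genes 36 of 38 and of the replication genes 32 of 39 go down between the passages, while 19 of 20 sterol genes and 25 of 28 respiratory chain genes go up.

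The promoters of the mitotic and the replication genes were searched for motifs of cell cycle genes. The CHR element, searched as TTTGAA on either strand in the same windows, is bound by the DREAM and MuvB complexes that repress mitotic genes in resting cells. It was present in 27 of the 33 mitotic genes with a window (81.8%), in 5 of 32 replication genes (15.6%) and in 17.3% of all 15614 genes. With a CCAAT box in the same window it was found in 24 of 33 mitotic genes (72.7%) and in 6.89% of all. The E2F site, searched as TTTGGCGC or TTTCCCGC on either strand, was present in 12 of 32 replication genes (37.5%), 1 of 33 mitotic genes and 2.56% of all. Inside the mitotic list, the 27 genes with the CHR element had medians of -0.84 and -1.59, and the 6 without it -0.82 and -1.45. The stretches below show the element upstream of the start in genes with large differences at passage 11. Capitals mark the CHR element and the CCAAT box in the mitotic genes, read on either strand, and the E2F site in the replication genes Dtl and Pola1.
Mki67 (chr7:135716432-135716517, minus strand): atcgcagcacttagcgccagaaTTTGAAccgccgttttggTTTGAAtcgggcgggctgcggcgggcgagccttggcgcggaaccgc
Prc1 (chr7:80294406-80294475, plus strand): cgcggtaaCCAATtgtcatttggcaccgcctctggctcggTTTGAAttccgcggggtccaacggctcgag
Ect2 (chr3:27153947-27154032, minus strand): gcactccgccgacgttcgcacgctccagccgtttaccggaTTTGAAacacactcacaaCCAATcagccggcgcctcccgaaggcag
Kif11 (chr19:37376323-37376381, plus strand): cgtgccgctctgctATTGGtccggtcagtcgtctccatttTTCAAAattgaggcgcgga
Dtl (chr1:191575545-191575592, minus strand): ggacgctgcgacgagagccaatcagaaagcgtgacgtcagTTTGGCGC
Pola1 (chrX:93632246-93632333, minus strand): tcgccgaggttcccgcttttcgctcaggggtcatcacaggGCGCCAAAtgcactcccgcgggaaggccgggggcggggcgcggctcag

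The genes with the most unlike differences between the passages were mostly high in the passage 3 oligodendrocyte array alone. Lox, which cross-links collagen, was at 7.40 and 7.33 in OPCs, at 10.89 in passage 3 oligodendrocytes and at 7.46 in passage 11 oligodendrocytes. Cnn1, the smooth muscle calponin, was at 8.95 and 8.48 in OPCs and at 12.05 and 8.43 in oligodendrocytes. Thbs1, the matrix glycoprotein thrombospondin 1, was at 9.73 and 9.04 against 13.03 and 9.46. Of the 12 genes with the largest decrease of the difference from passage 3 to passage 11, 10 had this pattern, the others being Rhoj and Casp8. Among the 10 were Vgll3, a cofactor of TEAD factors, at 3.07 and -0.11, the endothelin gene Edn1 at 3.13 and 0.44, the chemokine gene Cxcl10 at 3.19 and 0.07, the small heat shock protein gene Hspb1 at 3.11 and 0.33, and Ankrd1, a cardiac and stress-induced ankyrin gene, at 2.64 and 0.07. Rhoj instead was low in passage 11 oligodendrocytes only, with 11.20 and 11.85 in OPCs and 11.69 and 9.66 in oligodendrocytes. These genes were picked for this difference, so it has no test.

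Markers of mesenchymal and contractile cells were high in the same array. Of 15 measured, 7 were at least 2-fold higher in oligodendrocytes at passage 3 (2.65% of all genes). At passage 11 it was 1, Dcn (2.55% of all genes). Their mean log2 level was 9.14 and 8.81 in OPCs, 10.34 in passage 3 oligodendrocytes and 9.001 in passage 11 oligodendrocytes. Tagln, an actin-binding protein of smooth muscle, was at 10.89 and 9.29 in OPCs and at 13.34 and 9.49 in oligodendrocytes, and Myl9, a myosin light chain, at 10.59 and 9.70 against 13.00 and 10.04. The smooth muscle actin gene Acta2 was at 12.81 and 11.66 in OPCs already, and at 13.79 and 11.87 in oligodendrocytes. Of the collagen genes of the list, Col1a1 and Col3a1 were nearly equal in all 4 arrays, between 9.82 and 10.10 and between 9.16 and 9.22. Lum and Des stayed below the array median. These genes were chosen after their values were seen. The part of such cells in the passage 3 results was not tested.

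Some matrix, interferon and astrocyte genes also had a larger difference at passage 3. Fn1, the gene of fibronectin, was at 11.62 and 10.23 in OPCs and at 13.14 and 10.01 in oligodendrocytes, and Itga3, a laminin-binding integrin, had 2.11 and 0.15. Ifit3, an interferon-induced gene, was at 7.72 and 7.73 against 10.42 and 8.49, and Usp18, which restrains the interferon response, had 1.70 and -0.01. The interferon list had 3 of 19 members 2-fold higher at passage 3 and 1 at passage 11 (2.65% and 2.55% of all genes). Its medians were 0.47 and 0.10. Gfap, the astrocyte filament gene, was at 8.11 and 8.11 in OPCs, 10.50 in passage 3 oligodendrocytes and 8.69 in passage 11 oligodendrocytes. Aqp4, the astrocyte water channel, had 1.62 and 0.63, whereas S100b, a calcium-binding protein shared by astrocytes and oligodendrocytes, had 1.96 and 3.44. The 18 astrocyte markers as a list went the other way, with medians of -0.10 at passage 3 and 0.39 at passage 11 and 11 members more positive at passage 11. Their mean log2 level was 10.91 and 10.66 in OPCs and 11.08 and 11.08 in oligodendrocytes. Stmn2, a neuronal stathmin, was higher at passage 3 in both cell types, at 10.48 against 7.82 in OPCs and 12.56 against 8.12 in oligodendrocytes. The 20 neuron markers together had medians of -0.09 and -0.18, and 11 were negative at both passages (33.0% of all genes). Only Elavl3, a neuronal RNA-binding protein gene, was 2-fold higher at both, with 1.65 and 2.46, and Gap43 fell. The immediate early genes Dusp1 (2.04 and -0.49) and Egr1 (0.54 and -1.96) had opposite signs at the passages.

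**Figure D5:**
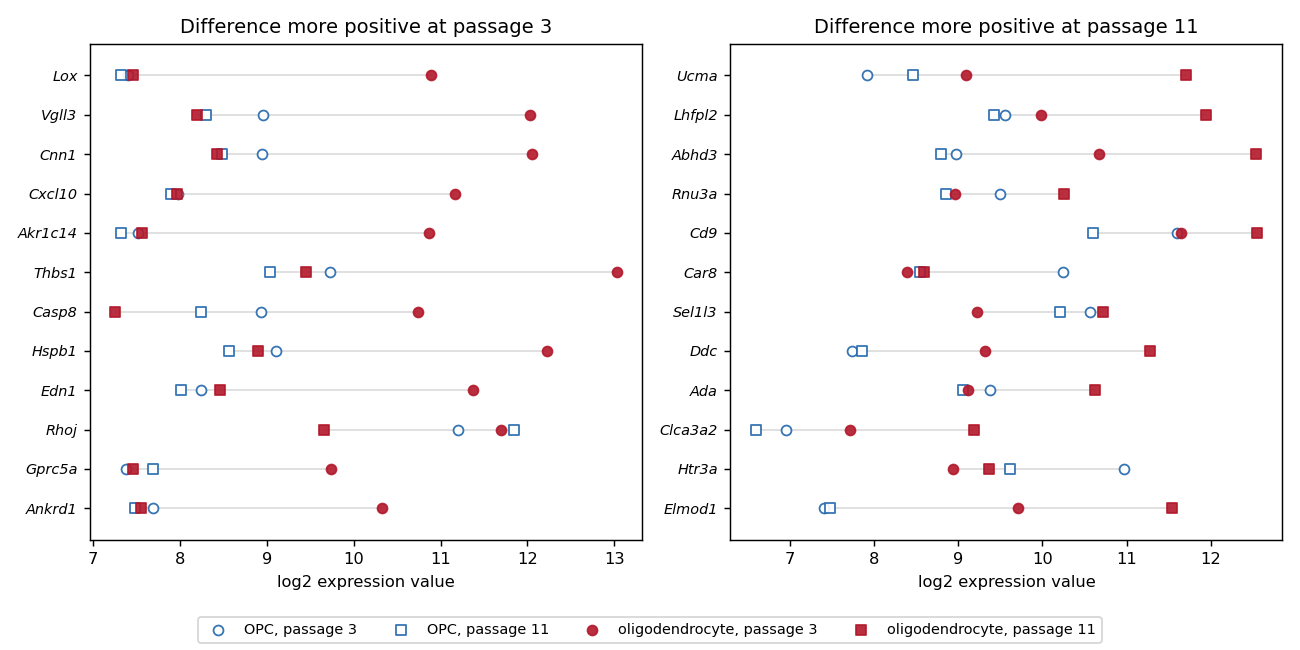
Log2 level in the 4 arrays of the 12 genes whose difference was more positive at passage 3 (left) and the 12 whose difference was more positive at passage 11 (right), with open symbols for OPCs, filled for oligodendrocytes, circles for passage 3 and squares for passage 11. On the left most filled circles stand alone on the right side of the row, such as Lox at 10.89. On the right the filled square is the highest in 10 of 12 rows, and Car8 and Htr3a instead have their highest value in passage 3 OPCs.

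In the other direction, some oligodendrocyte genes went further at passage 11. Elmod1, a GTPase-activating protein gene, was at 7.41 and 7.48 in OPCs and at 9.71 and 11.54 in oligodendrocytes. Abhd3, a phospholipase, was at 8.98 and 8.79 against 10.67 and 12.53, and the decarboxylase gene Ddc at 7.74 and 7.86 against 9.32 and 11.27. Both oligodendrocyte arrays lay above the OPC arrays for these 3 genes, and none was called (adjusted p between 0.134 and 0.211). Cd9, a tetraspanin, was at 11.59 and 10.60 in OPCs and at 11.65 and 12.55 in oligodendrocytes, a difference of 0.05 at passage 3 and 1.95 at passage 11. Htr3a, a serotonin-gated channel, and Car8, a carbonic anhydrase-related gene, were at least 2-fold lower in oligodendrocytes at passage 3 only, with -2.03 and -1.85 against -0.25 and 0.05 at passage 11, and both were at their highest in passage 3 OPCs.

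Respiratory chain genes were slightly higher at passage 11. Of 28, 25 had a more positive difference at passage 11, the medians were -0.05 and 0.32, and none was called (lowest adjusted p 0.550). Ndufa1, a subunit of complex I, was at 9.55 and 10.01 in OPCs and at 9.73 and 11.70 in oligodendrocytes, and Cox6a1, a subunit of cytochrome oxidase, at 11.87 and 12.01 against 11.99 and 13.36. They were the only 2 members 2-fold apart at passage 11. The 57 genes of ribosomal proteins, a set chosen after the values were seen, had medians of -0.18 and 0.11, and lay by a median of 0.36 higher in passage 11 than in passage 3 oligodendrocytes. The part of that shift in the respiratory chain values was not tested.

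The array also covers miRNA genes, and 296 of them were tested. Their rows measure transcripts over the annotated gene, not the mature miRNA. None was called, 8 had an unadjusted p under 0.05, and only Mir9-1 was 2-fold apart at both passages. Mir219a-2 was at 8.26 and 8.21 in OPCs and at 10.77 and 9.16 in oligodendrocytes (2.51 and 0.95, adjusted p = 0.276). Mir9-1 was at 11.72 and 11.07 against 10.53 and 9.80 (-1.19 and -1.28, adjusted p = 0.241). miR-219 is known to promote oligodendrocyte maturation, and miR-9 is a miRNA of neural progenitors. These were the largest differences each way among the miRNA genes, and their mature forms in RefSeq are shown with the seed, bases 2 to 8, in capitals.
mmu-miR-219a-5p (Mir219a-2, chr2:29845689-29845709, minus strand): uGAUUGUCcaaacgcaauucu
mmu-miR-9-5p (Mir9-1, chr3:88215613-88215635, plus strand): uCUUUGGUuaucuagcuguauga
mmu-miR-9-3p (Mir9-1, chr3:88215652-88215673, plus strand): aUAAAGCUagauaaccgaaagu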

How the data were processed

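The series holds 6 Affymetrix whole-transcript arrays, 1 for each culture, with target made from 150 ng of total RNA, per the labels' protocols. The deposited values are log2 expression values; per the submitters' processing notes, the authors ran RMA in Expression Console, and its version is not given in the sources used here. RMA gives every array the same distribution of probe values, so a change shared by most genes would be removed. No detection call was used. Of 35556 transcripts, 21789 carried 1 gene symbol, 1621 several and 12146 none; 999 genes had several transcripts. Some genes of the lists were not analysed here, and some items are not reported here.

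The test was limma's, two-sided (version 3.58.1, lmFit and eBayes, R 4.3.3), in a fit over 6 arrays and 4 cell types that left 2 residual and 3.32 prior degrees of freedom. The number of arrays limits the precision. Oligodendrocytes of a passage were made from OPCs of that passage, per the labels, so the passage pairs the samples. Same-passage arrays deviated together from their group means (r = 0.50 across genes), and the fit with the passage as a block is given where it changes a call.

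Genes were named by rule: the 20 largest increases and decreases among calls, filled with genes 2-fold apart at both passages; up to 6 members of each of 47 lists; the 12 genes each way whose differences were most unlike between passages; and 27 fixed names. A few others, such as Col1a1, Col3a1, Lum, Des, Bcan, Lpp and those of the promoter and miRNA sequences, were chosen after their values were seen. The members and lists were chosen with earlier results of these data known. Alternatives were another fit, filter, scaling or choice of transcript, and leaving out each array.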

Additional observations from a re-analysis of the deposited data

Results flagged for a closer look

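For 6 genes named here, oligodendrocytes were at least 2-fold apart from OPCs at 1 passage and lay by at least 0.2 (log2) on the other side at the other. The change of the difference from passage 3 to passage 11 was -2.79 for Casp8, a caspase, -2.68 for Rhoj, and -2.54 for Dusp1, a phosphatase of MAP kinases. It was -2.50 for Egr1, an immediate early factor, -2.16 for Lpp and -1.74 for Fn1, the fibronectin gene. The median of the 16 integrin genes was 0.21 at passage 3 and -0.21 at passage 11, a change of -0.42. With 1 array per cell type and passage these changes were not tested.

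Outside the named genes, 12146 transcripts without a gene symbol were measured. Of these, 88 (0.725%) were at least 2-fold apart the same way at both passages, 42 higher and 46 lower in oligodendrocytes. In a limma fit of their own 0 were called, and 645 had an unadjusted p under 0.05.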

How the results depend on the processing

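The number of called genes, 89, was 83 with the passage as a replicate block, 89 from the 4 arrays alone, 109 with eBayes trend and robust, 82 without the 33.3% dimmest genes and 87 with the mean of a gene's transcripts. It was 14 after another quantile normalization and 157 with arrays centred on their median. Leaving out 1 array gave between 2 and 2919 calls, 2 and 4 without an OPC array and 1365 and 2919 without an oligodendrocyte array; in the latter the spread comes from the OPC arrays alone. All 89 kept their direction in every alternative that tested them. With 1 array left out no called gene could turn sign, because its OPC and oligodendrocyte arrays do not overlap. The counts of genes 2-fold apart at passage 3, at passage 11 and at both stayed within 1.5 times of 634, 1003 and 302 under the filter, the choice of transcript and the scalings. They have no value with an array left out. With 1 array left out, the mean difference turned sign in at least 1 fit for 19 of the 179 genes named, none of them called. Among these, that of Tnc lay between -3.08 and 0.22, that of Casp8 between -1.33 and 2.15, and that of Ndufa1 between -0.056 and 1.91. No depth can be given for arrays, and genes near or below the array median may be understated.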

Other observations

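A few energy and chromatin genes not described above also differed. Of 23 glycolysis and hypoxia genes 2 rose (0.396% of all genes). Bnip3, a mitophagy receptor, rose from 9.65 and 9.25 in OPCs to 11.14 and 11.14 in oligodendrocytes. Eno2, an enolase, rose from 8.31 and 8.29 to 9.64 and 9.64. With the passage as a block, Bnip3 lost the call (adjusted p = 0.0531) and Eno2 kept it (adjusted p = 0.0498). Ldha, the lactate dehydrogenase, was at 13.35 and 13.09 against 13.22 and 12.35, without a call. Of 25 chromatin genes none was called, and 17 were negative at both passages (33.0% of all genes). Hmga2, a chromatin protein of progenitors, was at 11.89 and 11.42 in OPCs and at 10.80 and 9.71 in oligodendrocytes, with differences of -1.10 and -1.71. Dnmt1, the maintenance methyltransferase, had -0.84 and -1.26. Hdac11, a deacetylase, had 0.69 and 0.96. Of 23 splicing and RNA transport genes 16 were negative at both passages (33.0% of all genes). Among them was Ptbp1, a splicing repressor, at -0.37 and -1.06.

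Of 24 glutamate receptor genes only Grm5 was called. Neto1, an auxiliary subunit of kainate receptors, had -0.81 and -1.43, and the AMPA receptor gene Gria4 had -0.56 and -0.83, while the kainate receptor gene Grik2 had 0.61 and 0.83. Iron genes had a median of -0.01: Trf, transferrin, was at 8.55 and 8.61 in OPCs and at 9.56 and 9.55 in oligodendrocytes (adjusted p = 0.0781). Cp, ceruloplasmin, had 2.71 at passage 3 and 0.14 at passage 11.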
